A study of Mus musculus with 15 samples.

Results

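The ERBB receptors and their ligands of the EGF family were followed across mouse mammary tumors and glands: the 4 receptor genes Egfr, Erbb2, Erbb3 and Erbb4, and the 6 ligand genes Areg, Ereg, Hbegf, Tgfa, Btc and Nrg1. These 10 genes were chosen by name, and all were among the 51826 genes in the tables. RNA-seq had been performed on 15 libraries from 13 mice. The groups were 3 metaplastic carcinosarcomas and 3 carcinomas labelled TRIM24 overexpression (Trim24COE), 4 control mammary glands labelled Cre control, and 3 carcinomas called non-TRIM24, which arose spontaneously and whose genotype the labels give as unknown. In Trim24COE mice, MMTV-Cre, which is active in mammary epithelium, removes a stop cassette from a transgene that encodes Flag-tagged murine Trim24, and the control glands carry MMTV-Cre alone. The labels give the strain of every mouse as FVB, while the series text gives FVB/129 for the control mice; ages are not in the labels. The 10 Trim24COE tumors and control glands were sequenced in batch 1 and the non-TRIM24 tumors in batch 2, together with a repeat library of control gland 1 and of Trim24COE carcinoma 3. A list in the study gives a class called from RNA-seq for 5 of the 6 Trim24COE tumors (not carcinoma 3) beside those of a pair of pathologists. The first pathologist listed called carcinomas 1 and 3 carcinosarcoma and carcinosarcoma 2 spindle cell carcinoma, while the other gave the classes used here. The class of carcinomas 1 and 3 was thus disputed, and the division of the Trim24COE tumors may not be independent of expression.

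ERBB receptors are tyrosine kinases of the cell surface that pair with each other when a ligand binds. EGFR and ERBB4 bind ligand and carry an active kinase, ERBB3 binds neuregulins but signals mainly through its partner, and ERBB2 binds no known ligand and is the preferred partner. The ligands are made as membrane-anchored precursors that are cut loose by ADAM proteases. In the mammary gland, amphiregulin (the product of Areg) acts through EGFR in duct growth, and neuregulin and ERBB4 act in alveolar development and lactation.

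Values are in TPM (transcripts on a per-million scale), a level per transcript length that can be compared between genes, and each table column is scaled to the same total, so the sequencing depth is unknown. Differences between groups are log2 fold changes on the log2(TPM + 1) scale from limma, with the standard error (SE) and a p adjusted over all genes tested, and a gene passed the test at an adjusted p under 0.05. A fold change on this scale understates the change of low genes. Replicates are mice, each with 1 library in these fits unless a repeat is named.

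Trim24 itself had no higher level in the tumors that carry the transgene label than in the glands. It was 10.6, 12.02 and 14.5 TPM in the carcinosarcomas, 24.1, 13.9 and 16.5 TPM in the Trim24COE carcinomas, 14.5, 18.4, 22.4 and 15.9 TPM in the control glands, and 5.34, 9.34 and 10.04 TPM in the non-TRIM24 tumors. The difference between the 6 Trim24COE tumors and the glands was -0.24 (SE 0.26, limma adjusted p = 0.557). In the first libraries, which came from different batches, every Trim24COE tumor was above every non-TRIM24 tumor. Neither carcinomas (0.62, limma adjusted p = 0.31) nor carcinosarcomas (0.14, limma adjusted p = 0.826) passed the test against the non-TRIM24 tumors. The repeat libraries in batch 2 had 11.49 TPM for carcinoma 3 and 11.1 TPM for gland 1, lower than the first libraries of both mice, so the order across batches is uncertain. The group names below are therefore those of the labels. Tissue makeup also differed within groups. The summed level of 8 adipocyte markers was 24540 and 37160 TPM in control glands 1 and 2 but 1782 and 1969 TPM in glands 3 and 4, and that of 10 luminal epithelial markers was 929 and 1595 TPM against 4847 and 5153 TPM. Among the non-TRIM24 tumors, tumor 2 had 49790 TPM of adipocyte markers and 578 TPM of luminal markers, and its Epcam level of 36.4 TPM was below that of every control gland. In bulk tissue, fewer cells of a type and less RNA per cell cannot be told apart.

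The genes of 4 ligands of the family lie side by side. Epgn (not a member), Ereg, Areg and Btc occupy chromosome 5 from 91027464 to 91402994 in GRCm38 (376 kb), in the GENCODE M21 annotation. Areg spans 91139599 to 91148432 on the plus strand, Ereg 91074622 to 91093646 on the plus strand and Btc 91357261 to 91402994 on the minus strand. Tgfa lies on chromosome 6 (86195223 to 86275719, plus strand), and positions of Hbegf and Nrg1 are not reported here. The receptors are on chromosome 11 (Egfr, 16752203 to 16918158; Erbb2, 98412470 to 98437716; both plus strand), chromosome 10 (Erbb3, 128567523 to 128589652, minus strand) and chromosome 1 (Erbb4, 68032186 to 69108059, minus strand).

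The promoters of Areg and Tgfa are shown because these ligands were both highest in Trim24COE carcinomas 3 and 1, as described with their levels. RefSeq promoters (GRCm38.p6) were at hand for 6 of the 10 genes. Each sequence is the 250 bases before the start, 5′ to 3′ on the plus strand, at chr5:91139349-91139598 for Areg and chr6:86194972-86195221 for Tgfa. Capitals mark every match, on either strand, to the cyclic AMP response element TGACGTCA, the AP-1 site TGANTCA, the GC box GGGCGG or the TATA element TATAAA.
Areg: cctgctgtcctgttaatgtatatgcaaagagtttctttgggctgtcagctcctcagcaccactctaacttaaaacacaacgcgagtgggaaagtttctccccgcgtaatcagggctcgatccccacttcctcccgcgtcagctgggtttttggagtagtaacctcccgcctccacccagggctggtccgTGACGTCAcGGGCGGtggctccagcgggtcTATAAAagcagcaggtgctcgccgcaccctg
Tgfa: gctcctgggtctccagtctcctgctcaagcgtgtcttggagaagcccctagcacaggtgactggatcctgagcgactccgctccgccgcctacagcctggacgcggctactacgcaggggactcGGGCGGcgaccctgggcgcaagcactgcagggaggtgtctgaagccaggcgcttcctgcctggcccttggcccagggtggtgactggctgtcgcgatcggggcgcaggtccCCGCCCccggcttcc
The Areg window holds 1 cyclic AMP response element, 1 GC box and 1 TATA element, while the Tgfa window holds 2 GC boxes and none of the others. Of 32851 RefSeq promoter windows of this length, 1.55% hold the cyclic AMP response element, 6.75% the AP-1 site, 32.7% the GC box and 12.4% the TATA element. A match is a description of the letters only, and the RNA data do not bear on binding.

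The carcinosarcomas had lower summed receptor and higher summed ligand levels than the control glands. Of the single members, 1 of 3 receptors tested (Erbb3, lower) and 1 of 6 ligands (Ereg, higher) passed the test, and 23% of 15287 genes did. Of the 6 ligands, 3 were at a positive and 3 at a negative difference. The summed level of the 4 receptors was 8.49 to 14.9 TPM in the 3 carcinosarcomas and 27.2 to 102 TPM in the 4 control glands. The summed level of the 6 ligands was 108 to 136 TPM in the carcinosarcomas and 21.6 to 94.1 TPM in the glands. In the Trim24COE carcinomas the receptors summed to 28.2 to 62.4 TPM, within the range of the glands, and the ligands to 57.0 to 324 TPM. The non-TRIM24 tumors had 15.4 to 37.7 TPM of receptors and 8.64 to 81.1 TPM of ligands. Sums over the members are given as a description and were not tested.

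**Figure D1:**
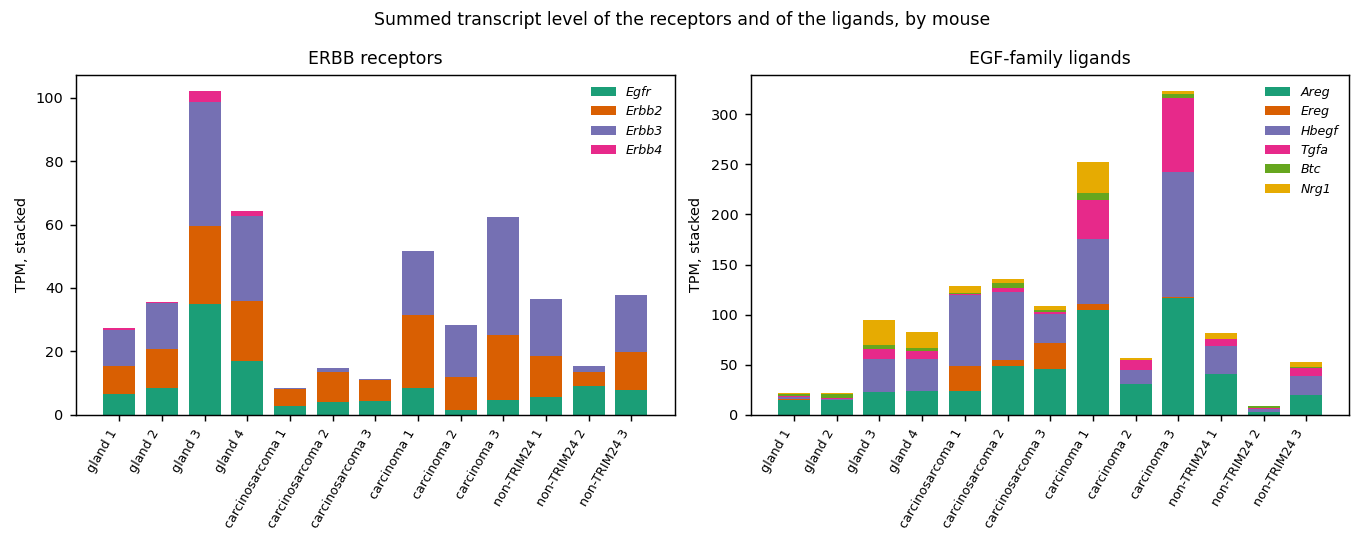
Stacked TPM of the 4 ERBB receptors (left) and the 6 EGF-family ligands (right) in the first library of each of the 13 mice; each bar is 1 mouse and each color 1 gene. Receptor bars of the carcinosarcomas (8.49 to 14.9 TPM) are the shortest of the 4 groups and hold almost no Erbb3, while their ligand bars (108 to 136 TPM) are taller than those of the control glands.

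Erbb3, the receptor for neuregulins with little kinase activity of its own, was nearly lost in the carcinosarcomas. Its level was 0.46, 1.43 and 0.35 TPM in the 3 carcinosarcomas and 11.3, 14.4, 39.1 and 26.8 TPM in the 4 control glands. The Trim24COE carcinomas had 20.3, 16.2 and 37.2 TPM, and the repeat library of carcinoma 3 had 33.7 TPM. Every carcinosarcoma was below every gland and every Trim24COE carcinoma, while the glands and carcinomas overlapped. The mean was 0.747 ± 0.594 TPM (SD, n = 3) in carcinosarcomas and 22.9 ± 12.7 TPM (SD, n = 4) in glands, and the difference was -3.67 (SE 0.47, limma adjusted p = 0.00223). The exact permutation test of this difference gave p = 0.0286, the smallest that 3 against 4 mice allow. Against the Trim24COE carcinomas (24.6 ± 11.1 TPM, SD, n = 3), the difference was -3.84 (SE 0.41, limma adjusted p = 0.0179). Erbb3 passed the filter on low values only through the glands or carcinomas, in which it was high, so entering these tests already favored a difference. With no filter, the difference from glands still passed (limma adjusted p = 0.0114) and that from carcinomas did not (limma adjusted p = 0.108). Without carcinosarcoma 1 (-3.74, limma adjusted p = 0.143), carcinosarcoma 3 (-3.68, limma adjusted p = 0.0816) or carcinoma 1 (-3.93, limma adjusted p = 0.0762) the difference from carcinomas no longer passed. It is also the test of whether both tumor classes differed from the glands by the same amount. In the carcinosarcomas Erbb3 made up 3.09% to 9.63% of the summed receptor level, and in the glands 38.3% to 41.6%.

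Luminal epithelial markers fell with Erbb3. In carcinosarcomas against glands, 8 of 10 luminal markers passed the test and were lower, while 23% of 15287 genes passed in either direction. The list median was -3.88, against -0.12 over all genes tested, and none of the 10 was at 0. Their summed level was 317 to 1414 TPM in carcinosarcomas, 929 to 5153 TPM in glands and 3093 to 7466 TPM in Trim24COE carcinomas. Per 100 TPM of Epcam, an epithelial adhesion molecule, Erbb3 was 4.47, 3.92 and 12.8 TPM in carcinosarcomas, 7.36, 7.86, 6.09 and 4.06 TPM in glands, and 1.59, 5.79 and 9.28 TPM in Trim24COE carcinomas. These ratios overlapped between all 3 groups. Per 100 TPM of the luminal keratin gene Krt8, Erbb3 was 0.353, 0.598 and 0.0383 TPM in carcinosarcomas and 2.08 to 7.13 TPM in glands. It was 6.63, 1.84 and 1.51 TPM in Trim24COE carcinomas and 0.986, 1.3 and 1.8 TPM in non-TRIM24 tumors. On that scale every carcinosarcoma was below every gland, but so were Trim24COE carcinomas 2 and 3 and every non-TRIM24 tumor. The carcinosarcomas had the lowest values. Carcinosarcoma 3 combined 914 TPM of Krt8 with 2.73 TPM of Epcam. With the mean luminal marker level as a covariate the Erbb3 difference from glands was -1.47 (limma adjusted p = 0.107) and from Trim24COE carcinomas -1.01 (limma adjusted p = 0.93), and the part of tissue makeup was not tested further. That covariate also moved the median over all genes tested, from -0.12 to 0.46 against glands and from -0.099 to 0.62 against carcinomas.

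**Figure D2:**
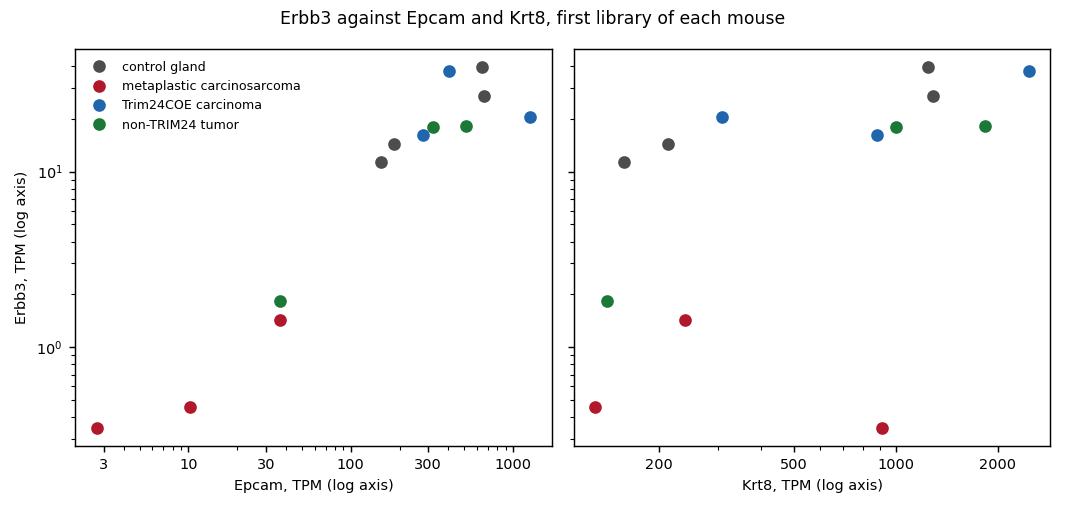
Erbb3 level against Epcam (left) and Krt8 (right), all in TPM on log axes, with 1 point per mouse (first library; non-TRIM24 tumors are from batch 2). Carcinosarcomas (0.35 to 1.43 TPM of Erbb3) lie along the other samples on the Epcam axis but below samples of like Krt8 level, and non-TRIM24 tumor 2 (1.84 TPM) lies near carcinosarcoma 2.

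Egfr, the receptor for amphiregulin, epiregulin and TGF-alpha, was lower in the 6 Trim24COE tumors as 1 group than in the glands. It was 2.65, 3.99 and 4.42 TPM in carcinosarcomas, 8.50, 1.59 and 4.70 TPM in Trim24COE carcinomas and 6.43, 8.27, 34.85 and 16.8 TPM in control glands. Carcinoma 1 was above glands 1 and 2, and the other 5 tumors were below every gland. The difference was -1.56 (SE 0.48, limma adjusted p = 0.0446; exact permutation p = 0.0143), a 2.95-fold lower level. Under 12 of 19 alternatives the adjusted p was above the threshold, among them leaving out gland 2, 3 or 4, carcinoma 2 or 3 or any carcinosarcoma, with values between -1.13 and -1.78 for these mice. Without both fat-poor glands 3 and 4 the difference was -0.76 (limma adjusted p = 0.276), and without the fat-rich glands 1 and 2 it was -2.37 (limma adjusted p = 0.0133). In carcinosarcomas against glands, Egfr differed by -1.65 (SE 0.54, limma adjusted p = 0.0605), with no overlap between the groups. Leaving out both fat-rich glands brought that value past the threshold (-2.45, limma adjusted p = 0.00496), and the luminal covariate turned its sign (0.48, limma adjusted p = 0.725). The median over all genes tested moved with that covariate too, from -0.12 to 0.46, so the turn is not particular to Egfr.

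Erbb2, the receptor with no known ligand, did not pass the limma test in any of the 7 comparisons, and it was at an unadjusted p under 0.05 in 3 of them. It was 5.38, 9.42 and 6.53 TPM in carcinosarcomas, 22.8, 10.3 and 20.4 TPM in Trim24COE carcinomas, 8.86, 12.4, 24.6 and 19.2 TPM in control glands and 13.06, 4.51 and 12.02 TPM in non-TRIM24 tumors. The 3 carcinosarcomas were below the 3 Trim24COE carcinomas and overlapped with the glands only through gland 1. The difference was -1.18 (SE 0.38, limma adjusted p = 0.239) from the carcinomas and -1.03 (SE 0.39, limma adjusted p = 0.091) from the glands. Leaving out glands 1 and 2 gave -1.52 (limma adjusted p = 0.013) from the glands, while the luminal covariate turned the sign of both differences, to 0.63 (limma adjusted p = 0.42) from the glands and 0.52 (limma adjusted p = 0.972) from the carcinomas. With that covariate the medians over all genes tested were 0.46 and 0.62, so these turns are not particular to Erbb2. Erbb2 formed 57.7% to 63.4% of the summed receptor level in carcinosarcomas and 24.1% to 34.9% in glands.

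Erbb4, the other neuregulin receptor, was detectable mainly in the control glands. The glands had 0.66, 0.47, 3.64 and 1.61 TPM. The carcinosarcomas were listed at 0, 0.01 and 0.01 TPM, the Trim24COE carcinomas at 0.07, 0 and 0.07 TPM and the non-TRIM24 tumors at 0, 0 and 0.02 TPM. Every tumor was below every gland, but only glands 3 and 4 exceeded 1 TPM, so the gene passed the filter on low values in no comparison. The exact permutation test of the 6 Trim24COE tumors against the 4 glands gave p = 0.00476, the smallest this design allows, 1 of 40 such tests run on the members and not adjusted for them. With no filter on low values the difference was -1.18 (limma adjusted p = 0.0449). No fold is given, because the tumor values are at or near 0 and the depth is unknown.

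**Figure D3:**
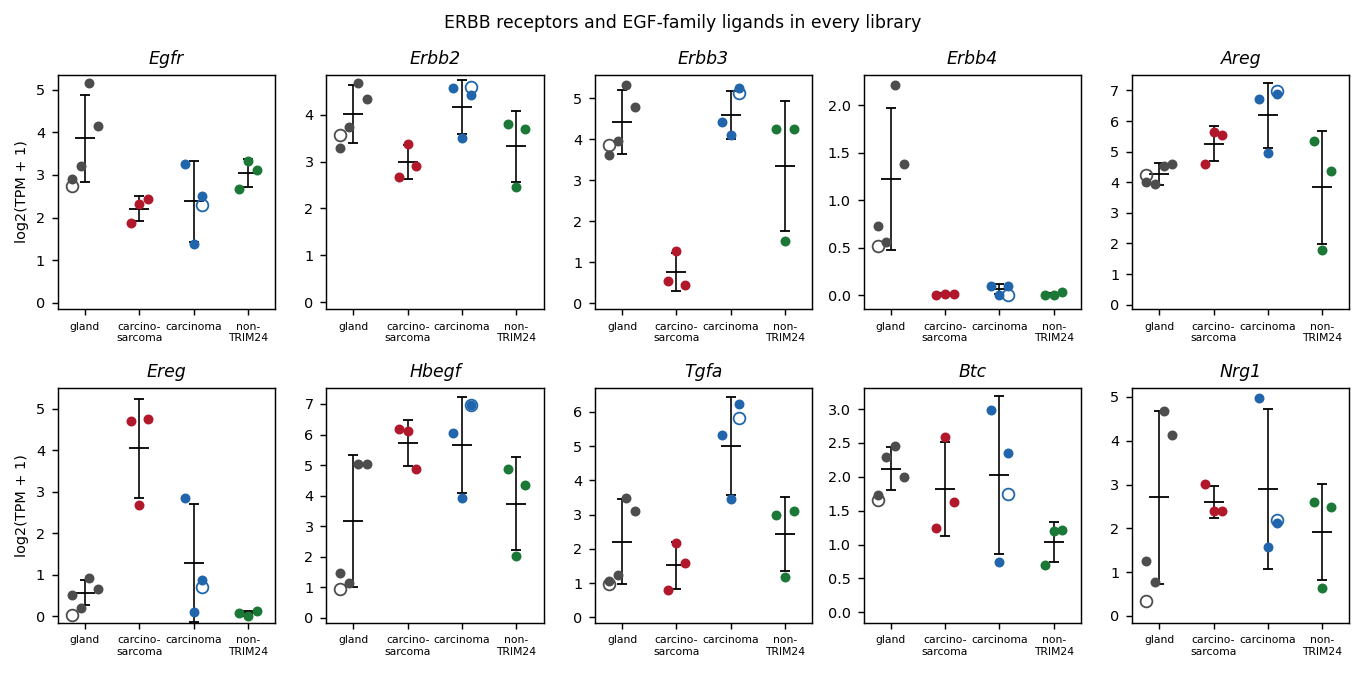
Level of each of the 10 genes as log2(TPM + 1), with 1 filled point per mouse, open circles for the repeat libraries of control gland 1 and Trim24COE carcinoma 3, and bars for the mean and SD of the mice of a group (n = 4 glands and 3 of each tumor group). The axes differ between genes. Erbb3 is low in the 3 carcinosarcomas and in non-TRIM24 tumor 2, Erbb4 is near 0 in every tumor, and Ereg is highest in the carcinosarcomas.

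Ereg, which encodes epiregulin, a ligand of EGFR and ERBB4, was the 1 ligand that passed the test in the carcinosarcomas. It was 25.2, 5.39 and 25.9 TPM in carcinosarcomas and 0.42, 0.14, 0.90 and 0.59 TPM in control glands. Every carcinosarcoma was above every gland. The mean was 18.8 ± 11.6 TPM (SD, n = 3) against 0.513 ± 0.318 TPM (SD, n = 4), a difference of 3.47 (SE 0.52, limma adjusted p = 0.00417; exact permutation p = 0.0286, the smallest possible). Ereg passed the filter on low values only through the tumors in which it was high, so entering the test already favored a difference, and it was not tested in Trim24COE carcinomas against glands. With no filter the difference from glands was still 3.47 (limma adjusted p = 0.0214), and with the luminal covariate it was 2.84 (limma adjusted p = 0.137). Over the 6 Trim24COE tumors it was 2.09 (SE 0.85, limma adjusted p = 0.113). The Trim24COE carcinomas had 6.21, 0.07 and 0.84 TPM, so carcinoma 1 was above carcinosarcoma 2, and the difference between the classes was 2.77 (SE 0.84, limma adjusted p = 0.223). The non-TRIM24 tumors had 0.05, 0.01 and 0.09 TPM, and carcinosarcomas differed from them by 3.64 (SE 0.68, limma adjusted p = 0.0158). With no filter this last value was 3.60 (limma adjusted p = 0.0653), without carcinosarcoma 1 it was 3.31 (limma adjusted p = 0.0723), and without non-TRIM24 tumor 3 it was 3.67 (limma adjusted p = 0.0706). Fibroblast and macrophage markers were also higher in carcinosarcomas than in glands (4 of 8 and 6 of 8 passed the test, and 23% of 15287 genes did). Summed levels were 2075 to 8005 TPM against 605 to 1509 TPM for fibroblast markers and 1854 to 3469 TPM against 257 to 832 TPM for macrophage markers. The part of these cell types in the Ereg level was not tested.

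Areg, the neighbor of Ereg, was higher in the Trim24COE tumors. It was 23.2, 48.7 and 46.0 TPM in carcinosarcomas, 104.5, 30.1 and 116 TPM in Trim24COE carcinomas and 14.9, 14.3, 22.2 and 23.2 TPM in control glands. All 3 carcinomas were above every gland, and carcinosarcoma 1 was level with gland 4. The difference between the 6 tumors and the glands was 1.46 (SE 0.44, limma adjusted p = 0.0428; exact permutation p = 0.0238), a 2.75-fold higher level. Under 12 of 19 alternatives this difference no longer passed the test (adjusted p of up to 0.204), among them leaving out any of the 4 glands, carcinoma 1 or 3 or carcinosarcoma 2 or 3, and over all 19 it lay between 1.16 and 1.81. For the classes taken singly, carcinomas differed from glands by 1.92 (SE 0.48, limma adjusted p = 0.0726) and carcinosarcomas by 1.00 (SE 0.34, limma adjusted p = 0.0679). The non-TRIM24 tumors had 40.2, 2.47 and 19.5 TPM, and the carcinomas differed from them by 2.51 (SE 0.75, limma adjusted p = 0.179).

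Tgfa, which encodes the EGFR ligand TGF-alpha, separated the tumor classes without passing the test. It was 39.0, 9.94 and 73.9 TPM in Trim24COE carcinomas and 0.73, 3.52 and 1.98 TPM in carcinosarcomas. Every carcinoma was above every carcinosarcoma, and the glands, at 1.08, 1.34, 10.1 and 7.52 TPM, overlapped with both. The difference between the classes was -3.49 (SE 0.73, limma adjusted p = 0.123), and of 13 alternatives it passed the test only without carcinoma 2 (-4.26, limma adjusted p = 0.0367). With the luminal covariate it was -0.33 (limma adjusted p = 0.991). Carcinomas differed from glands by 2.79 (SE 0.83, limma adjusted p = 0.105) and from non-TRIM24 tumors by 2.32 (SE 0.83, limma adjusted p = 0.211). Carcinomas 1 and 3 held the highest Tgfa and the highest Areg of all 13 mice, the pair of ligands whose promoters are printed above.

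Hbegf, which encodes the heparin-binding ligand of EGFR and ERBB4, showed most plainly how the control glands set a result. It was 71.4, 68.8 and 28.3 TPM in carcinosarcomas and 64.9, 14.2 and 125 TPM in Trim24COE carcinomas. The glands had 1.79, 1.23, 32.1 and 31.8 TPM, so the fat-rich and the fat-poor pair stood apart. The difference between the 6 tumors and all 4 glands was 2.51 (SE 0.87, limma adjusted p = 0.0696). It was 4.37 (limma adjusted p = 0.00439) against the fat-rich glands 1 and 2 and 0.65 (limma adjusted p = 0.54) against the fat-poor glands 3 and 4. In carcinosarcomas against glands the difference was 2.55 (SE 1.06, limma adjusted p = 0.118), and it became -0.47 (limma adjusted p = 0.567) with the adipocyte markers as a covariate. Hbegf formed 26.1% to 55.4% of the summed ligand level in carcinosarcomas, and it was the most abundant ligand in carcinosarcomas 1 and 2, while Areg was in carcinosarcoma 3.

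Nrg1, the neuregulin gene whose products bind ERBB3 and ERBB4, and Btc, which encodes betacellulin, did not pass the limma test in any of the 7 comparisons, nor were they at an unadjusted p under 0.05 in any. Nrg1 was 7.08, 4.24 and 4.26 TPM in carcinosarcomas, 30.4, 1.98 and 3.35 TPM in Trim24COE carcinomas and 1.38, 0.70, 24.4 and 16.6 TPM in control glands. The glands split in the same pairs as for Hbegf, and carcinoma 1 stood above the other 5 Trim24COE tumors. Carcinoma 1 also had 3528 TPM of 7 basal epithelial markers, against 122 to 520 TPM in the other 5 tumors, and glands 3 and 4 had 3798 and 3885 TPM against 287 and 374 TPM in glands 1 and 2. Whether basal cells carry the Nrg1 level was not tested. Btc lay between 0.67 and 6.94 TPM in the 6 Trim24COE tumors and between 2.32 and 4.47 TPM in the glands. The carcinosarcomas thus had Nrg1 within the range of the glands and Erbb3 and Erbb4, the receptors for its products, below all of them.

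Across the 4 batch 1 comparisons few members passed the test. In Trim24COE tumors against control glands, 2 of 9 members tested passed, Areg higher and Egfr lower, and 17.1% of 15196 genes did. In carcinosarcomas against glands, 2 of 9 passed, Ereg higher and Erbb3 lower, and 23% of 15287 genes did. In Trim24COE carcinomas against glands, none of 8 passed, with 2 at an unadjusted p under 0.05 (Areg and Tgfa), and 3.5% of 15479 genes did. In carcinosarcomas against Trim24COE carcinomas, 1 of 9 passed, Erbb3, and 0.698% of 14193 genes did. The first 3 counts were near their backgrounds, so they show nothing particular to the family, and all comparisons with glands share the same 4 glands. The last count rests on Erbb3 alone, which with no filter did not pass (limma adjusted p = 0.108), so it too shows nothing about the family. Exact permutation tests of carcinosarcomas against carcinomas, with 3 mice each, cannot go below p = 0.1.

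**Figure D4:**
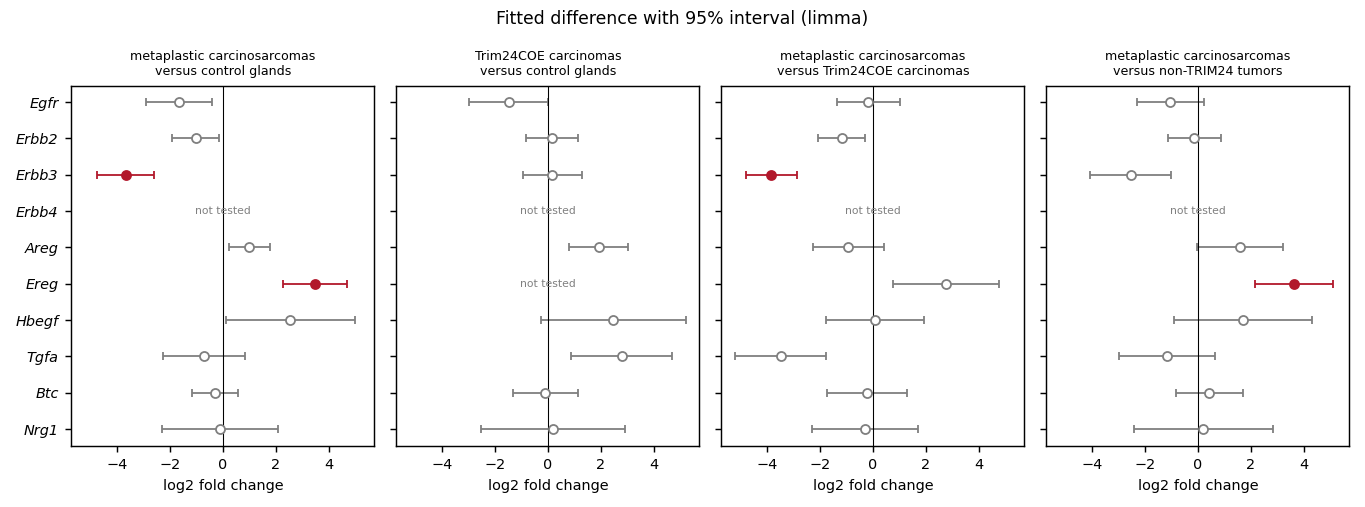
Fitted log2 fold change of each gene (x axis) with its 95% interval in 4 comparisons; filled red points passed the limma test at an adjusted p under 0.05, open gray points did not, and genes that failed the filter on low values are marked. Erbb3 is lower in carcinosarcomas than in glands (-3.67) and Trim24COE carcinomas (-3.84), and Ereg is higher in carcinosarcomas than in glands (3.47) and non-TRIM24 tumors (3.64).

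The comparisons with non-TRIM24 tumors set both Trim24COE classes and the glands beside spontaneous tumors of unknown genotype. Batch could be separated from group only through the 2 mice sequenced in both batches, and the fit used all 15 libraries with a batch term. None of 9 members passed in non-TRIM24 tumors against glands (0.709% of 16775 genes did), and none was at an unadjusted p under 0.05. None of 9 passed in Trim24COE carcinomas against non-TRIM24 tumors (0.0298% of genes did), with 3 at an unadjusted p under 0.05 (Areg, Tgfa and Erbb2, which differed by 1.04, SE 0.46). In carcinosarcomas against non-TRIM24 tumors, Ereg was the 1 of 9 that passed (4.76% of genes did), and with no filter it did not. Erbb3 was 18.1, 1.84 and 18.0 TPM in the non-TRIM24 tumors, and the carcinosarcomas differed by -2.54 (SE 0.71, limma adjusted p = 0.0579). Without non-TRIM24 tumor 2, the library with few luminal and many adipocyte transcripts, that difference was -3.45 (limma adjusted p = 0.0103). Over the 10 genes the repeat differed from the first library by at most 0.92 on the log2(TPM + 1) scale in control gland 1 (Nrg1) and at most 0.61 in carcinoma 3 (Btc). With 1 repeat per mouse, sequenced in the other batch, technical spread and batch cannot be told apart.

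Ordered by group mean, Erbb3, Erbb2, Areg, Hbegf, Tgfa, Btc and Nrg1 were highest in Trim24COE carcinomas, Egfr and Erbb4 in control glands, and Ereg in carcinosarcomas. No neighbors in these orders that were tested differed past the threshold, and Erbb4, and Ereg in carcinomas against glands, were not tested. Carcinosarcomas were the lowest group for Egfr, Erbb2, Erbb3 and Tgfa.

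The genes whose levels most resembled those of a receptor over the 10 mice of batch 1 were, for Erbb3, Tmc4 (Pearson r = 0.994), Tnk1 (0.993) and the epithelial protease gene St14 (0.99). For Egfr they were Acad9 (0.98), Mapkbp1 (0.978) and Ksr1 (0.974), and for Erbb2 Plekhg2 (0.975), Nr1h2 (0.97) and Atp2c2 (0.969). These are descriptions over mice of 3 groups that share tissue makeup, with no test. Erbb4 was not among the genes that passed the filter.

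In the lists of downstream and regulatory genes, the share that passed in carcinosarcomas against glands was near or below the 23% of all genes tested, so the genes named here show nothing particular to the pathway. Of 15 docking and adaptor genes tested against glands, 2 were lower and none higher. Grb7, an adaptor that binds ERBB receptors and lies 8.68 kb beyond Erbb2 on chromosome 11 (98446394 to 98455373), was 0.35, 0.85 and 0.14 TPM in carcinosarcomas and 11.3 to 30.5 TPM in glands, a difference of -4.04 (SE 0.40, limma adjusted p = 0.00115). Every carcinosarcoma was below every gland, whereas Erbb2 overlapped. Grb7 passed the filter on low values only through the glands or carcinomas, in which it was high, so entering these tests already favored a difference. The other lower gene of this list was Grb14, also a receptor adaptor (-2.22, SE 0.59, limma adjusted p = 0.0313). Of 16 genes for inhibitors and degradation factors, 1 was higher (Sh3kbp1, 1.90) and 2 were lower, the ubiquitin ligase gene Cblc (-3.55) and Lrig3 (-1.88). Grb7 and Cblc were lower than in Trim24COE carcinomas too, by -4.10 (SE 0.39, limma adjusted p = 0.0123) and -3.60 (SE 0.40, limma adjusted p = 0.019), as was Phlda1, an ERK-induced gene (-2.0, SE 0.23, limma adjusted p = 0.0194). Against the carcinomas, Grb7, Cblc and Phlda1 no longer passed with no filter, with either marker covariate or on leaving out carcinosarcoma 1 or carcinoma 1. Grb7, Cblc and Erbb3 were thus lower in the same tumors as the luminal markers.

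RAS-ERK and PI3K transducers passed at a share near that of all genes tested. In carcinosarcomas against glands, Nras rose by 1.57 (SE 0.27, limma adjusted p = 0.00673) and Pik3r2, a regulatory subunit of PI3K, by 1.18. In the same comparison Pik3r1, another regulatory subunit gene, fell by 3.42 on the log2 scale (limma adjusted p = 0.00182), and Sos2 was lower (-1.16). In the 6 Trim24COE tumors against glands, Nras (1.40), Map2k1 (0.92) and Pik3r1 (-2.53) passed, as did the adaptors Gab1 (-1.73) and Grb14 (-2.15), Sh3kbp1 (1.74) and Lrig3 (-1.61). In that comparison 17.1% of 15196 genes tested passed, so the genes named show nothing particular to the pathway. Of 8 sheddases and their partners, the metalloprotease gene Adam12 was the 1 that passed there (2.03, SE 0.61, limma adjusted p = 0.0432) and in carcinosarcomas against glands (2.00).

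Few output genes of ERK signaling passed the test. None of 10 feedback inhibitors (Dusp and Spry families among them) passed the limma test in any of the 7 comparisons. In carcinosarcomas against Trim24COE carcinomas 5 of the 10 were at an unadjusted p under 0.05, and 2126 of 14193 genes tested were. In the other comparisons 0 to 2 of the 10 were. The share of all genes tested that passed ran from 0.0298% (Trim24COE carcinomas against non-TRIM24 tumors) to 23% (carcinosarcomas against glands). With lists of 10 and 14 genes, the counts that passed cannot set ERK output apart from other genes. Whether the 5 feedback inhibitors at an unadjusted p under 0.05 exceed their background was not tested. The list median of the feedback inhibitors was 0.31 in Trim24COE tumors against glands, where that of all genes tested was -0.037. In carcinosarcomas against Trim24COE carcinomas it was -1.0, and that of all genes tested was -0.099. Of 14 ERK-induced early genes, Etv4, which encodes an ETS transcription factor, was the 1 that passed in all 3 comparisons of Trim24COE tumors with glands. It was 49.2, 55.0 and 34.3 TPM in carcinosarcomas, 67.9, 42.4 and 88.9 TPM in Trim24COE carcinomas and 2.57, 4.48, 12.25 and 10.2 TPM in glands, with no overlap between tumors and glands. The differences were 2.66 (SE 0.48, limma adjusted p = 0.00815) in carcinosarcomas and 3.14 (SE 0.51, limma adjusted p = 0.0239) in carcinomas. In glands 3 and 4 the ERK-induced Fosl1 was 72.4 and 68.8 TPM and the feedback gene Dusp5 217 and 204 TPM, against 0.99 and 0.79 TPM and 2.51 and 3.75 TPM in glands 1 and 2. Neither gene passed the limma test in any comparison, and both were chosen after their values were seen.

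A median-ratio rescaling of the libraries moved the median over all genes from -0.12 to 0.08 in carcinosarcomas against glands, and in the 3 comparisons with non-TRIM24 tumors from -0.27, 0.27 and 0.13 to -0.0017, 0.0098 and 0.014. With it the split of calls in carcinosarcomas against glands went from 1503 higher and 2008 lower to 2411 and 1818, in non-TRIM24 tumors against glands from 34 and 85 to 84 and 86, and in carcinosarcomas against non-TRIM24 tumors from 544 and 255 to 541 and 442. The directions given for Erbb3, Ereg, Areg, Egfr, Grb7 and Etv4 exceed these shifts.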

How the data were processed

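RNA was sequenced from mammary tumors and glands by the study, and the deposited tables, 1 for each sequencing batch, hold TPM values that the authors made per gene and library. Per the paper, TPM was estimated with RSEM and the STAR aligner after FastQC and Trimmomatic, on GRCm38 with GENCODE M14, while the submitters' processing notes list FastQC, TopHat, Cufflinks, RSEM, DESeq and edgeR with mm10. The labels name a stranded total RNA kit and the paper another TruSeq RNA kit. TPM keeps no depth, so no counting error could be given.

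Groups were taken from the labels. Genes were kept if the number of libraries at 1 TPM or more was no lower than the number of mice in the smaller group, and were tested with limma 3.58.1 in R 4.3.3 (lmFit, eBayes with a variance trend) on log2(TPM + 1), two-sided, with Benjamini-Hochberg adjustment over all genes tested. The 4 comparisons within batch 1 were fitted on those mice alone, without repeat libraries. For the 3 comparisons that involve non-TRIM24 tumors, batch entered the model of all 15 libraries as a term, and the libraries of a mouse were linked by duplicateCorrelation (consensus correlation 0.951). Where leaving out a repeated mouse left this correlation without an estimate, the value of the full fit was kept. Single members were compared by two-sided exact permutation tests of the mean log2(TPM + 1). The fits were tested on simulated data. The tables were normalized separately, so levels set across batches rest on the deposited scale.

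The members and all gene lists were chosen with earlier results of these data known. The text names the 10 members, up to 3 genes in each direction from each pathway list and batch 1 comparison by smallest adjusted p among those past the threshold, the 3 genes most correlated with each receptor, Trim24 and the marker genes. Genes named outside this rule are marked as chosen after their values were seen. Fitted differences of members are printed where the unadjusted p was under 0.05, and other members are given by their levels. Alternatives were a pseudocount of 0.1 TPM, no filter, median-ratio rescaling, all batch 1 groups in 1 fit, adipocyte or luminal covariates, repeat libraries averaged or entered as separate, no batch term and each mouse left out. Leaving out both fat-rich or both fat-poor control glands was added after seeing the data. Gene coordinates are from GENCODE M21 (GRCm38), whose gene identifiers matched those of the tables for 9 of 10 members, Hbegf differing in its version. A result for 1 gene of the transducer list is not reported here.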

Additional observations from a re-analysis of the deposited data

Results flagged for a closer look

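Nrg1 in Trim24COE carcinoma 1, at 30.4 TPM, stood farther from the other 5 Trim24COE tumors than Dixon's 95% limit allows. It was the 1 of 20 groups of values tested (10 members in the control glands and in the 6 Trim24COE tumors) to do so, and chance flags about 1 in 20. The same tumor had the highest basal epithelial marker level of the 6 tumors, and whether this bears on Nrg1 was not tested.

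Erbb3 differed between the tumor classes in its change from the control glands, by -3.84 on the log2(TPM + 1) scale (carcinosarcomas minus Trim24COE carcinomas, SE 0.41, limma adjusted p = 0.0179). With no filter on low values this difference no longer passed (limma adjusted p = 0.108). Every carcinosarcoma was below every carcinoma.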

How the results depend on the processing

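Counts of members that passed the limma test moved as follows. In Trim24COE tumors against glands (2) they were 1 with no filter, 3 with rescaling, 4 with all batch 1 groups in 1 fit, 0 with the adipocyte covariate, 1 without both fat-poor glands and 0 to 3 on leaving out each mouse. In carcinosarcomas against glands (2) they were 3 with rescaling, 6 with the adipocyte and 1 with the luminal covariate, 7 without both fat-rich and 5 without both fat-poor glands, and 2 to 4 on leaving out each mouse. In Trim24COE carcinomas against glands (0) they were 1 with rescaling, 1 with all groups in 1 fit, 1 without both fat-rich and 2 without both fat-poor glands, and 0 to 1 on leaving out each mouse. In carcinosarcomas against carcinomas (1) they were 0 with no filter, 0 with the adipocyte and 0 with the luminal covariate, and 0 to 2 on leaving out each mouse. In carcinosarcomas against non-TRIM24 tumors (1) they were 2 at a pseudocount of 0.1 TPM, 0 with no filter, 2 with rescaling, 2 with no batch term, 0 with repeat libraries entered as separate, and 0 to 2 on leaving out each mouse. Both remaining comparisons stayed at 0 under every alternative run. The cause of these moves was not tested.

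Of the 21 member differences printed, some changed sign. With the luminal covariate, Egfr (0.48) and Erbb2 (0.63) did in carcinosarcomas against glands, and Erbb2 (0.52) and Ereg (-2.66) did in carcinosarcomas against carcinomas; with the adipocyte covariate, Hbegf did in carcinosarcomas against glands (-0.47). These covariates differ between the groups. The luminal covariate moved the median over all genes tested from -0.12 to 0.46 in carcinosarcomas against glands and from -0.099 to 0.62 in carcinosarcomas against carcinomas. The adipocyte covariate moved it from -0.12 to -0.31 in carcinosarcomas against glands. Of 41 other member differences fitted, 23 changed sign and 5 passed the test under at least 1 alternative. Erbb3 in carcinosarcomas against glands stayed between -4.81 and -1.47 and passed except with the luminal covariate. Against carcinomas it stayed between -4.99 and -1.01 and failed with no filter (adjusted p = 0.108), with the adipocyte (0.187) and luminal (0.93) covariates and on leaving out carcinosarcoma 1, carcinosarcoma 3 or carcinoma 1. Ereg in carcinosarcomas against glands stayed between 2.84 and 4.82 and passed except with the luminal covariate (adjusted p = 0.137). Ereg in carcinosarcomas against non-TRIM24 tumors failed with no filter (3.60, adjusted p = 0.0653), with repeat libraries entered as separate (3.42, 0.106) and without carcinosarcoma 1 or non-TRIM24 tumor 3.

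Counts over all genes moved by more than 1.5 times as follows. Carcinosarcomas against glands (3511) gave 1623 with no filter, 2139 with the luminal covariate and 5837 without both fat-rich glands. Trim24COE tumors against glands (2597) gave 1016 with the adipocyte covariate. Trim24COE carcinomas against glands (542) gave 46 with no filter, 1239 with all groups in 1 fit, 1391 with the luminal covariate, 1224 without both fat-rich and 1255 without both fat-poor glands. Carcinosarcomas against carcinomas (99) gave 0 with no filter or either covariate. With no batch term, non-TRIM24 tumors against glands (119), carcinomas against non-TRIM24 tumors (5) and carcinosarcomas against non-TRIM24 tumors (799) gave 2330, 1500 and 2425, with no filter 48, 12 and 208, and with repeat libraries entered as separate 18, 3 and 13; the second gave 2 at a pseudocount of 0.1 TPM. On leaving out each mouse the counts were 1779 to 2911, 1345 to 3093, 72 to 526 and 0 to 293 in the 4 batch 1 comparisons, in the order of Trim24COE tumors, carcinosarcomas and carcinomas against glands and carcinosarcomas against carcinomas, and 7 to 476, 2 to 89 and 39 to 839 in the 3 others.

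No paired analysis was possible because replicate numbers were given in accession order and pair no samples. With TPM alone, values near 0 cannot be set against a counting limit.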

Other observations

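Of the 5 EGF-family ligand genes outside the 10, Epgn and Nrg4 were the ones with levels above 5 TPM, both chosen here after their values were seen. Epgn, which encodes epigen and lies in the chromosome 5 cluster beside Ereg, was 63.8 TPM in Trim24COE carcinoma 1, 12.8 TPM in carcinosarcoma 3, 4.12 TPM in carcinosarcoma 1, and at most 2.44 TPM in the other 10 mice. Nrg4, a neuregulin gene expressed by adipocytes, was 35.3 and 27.5 TPM in the fat-rich control glands 1 and 2, 47.1 and 13.03 TPM in non-TRIM24 tumors 2 and 3, and at most 3.63 TPM in the other 9 mice. The summed adipocyte marker level was 24540 and 37160 TPM in those 2 glands and 49790 and 25830 TPM in those 2 tumors. None of the genes of this list that were tested passed the limma test in any of the 7 comparisons, with 0 or 1 at an unadjusted p under 0.05 in each.

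Dusp6, a phosphatase gene that ERK induces and that limits ERK, was 85.3, 83.8 and 55.4 TPM in carcinosarcomas and 191, 207 and 220 TPM in Trim24COE carcinomas, with no overlap. The difference of -1.47 did not pass the test (limma adjusted p = 0.0649), and the gene was chosen after its values were seen.

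Errfi1, which encodes an inhibitor that binds the EGFR kinase, was 701 and 557 TPM in the fat-poor control glands 3 and 4 and 23.4 and 21.2 TPM in glands 1 and 2. It was 53.8 to 198 TPM in the 6 Trim24COE tumors, between both pairs of glands. It too was chosen after its values were seen.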
